A study of Mus musculus with 6 samples.

Results

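The genes described here are 7 ion pump genes, read in striatal RNA of mice without PGC-1alpha: Atp1b1 and Atp1b2, for the beta subunits of the sodium-potassium pump, Atp2a2, for the calcium pump of the endoplasmic reticulum, and Atp2b1, Atp2b2, Atp2b3 and Atp2b4, for the calcium pumps of the plasma membrane. They are 7 of 18193 genes named on the array, and were taken as every probe set that the array annotation gives to 1 of these symbols alone. That gave 22 probe sets, of which 20 from 6 genes were bright enough to be tested. The knockout (KO) group was 3 female PGC-1a-/- mice and the wild-type (WT) group 3 female PGC-1a+/+ littermates, all 6 months old and bred from PGC-1a+/- parents, with striatal RNA of each mouse on 1 Affymetrix array. The null allele was inherited, so every cell of the KO mice carried it from conception, and which part of Ppargc1a it alters is not stated in the labels. KO 3 is labelled as cytoplasmic RNA and the other 5 samples as total RNA, and values without KO 3 are given beside several results.

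PGC-1alpha is a transcriptional coactivator that raises the expression of genes for mitochondria and oxidative metabolism. The pumps described here are among the main consumers of the ATP that mitochondria make in neurons. The sodium-potassium pump restores the gradients that action potentials and synaptic currents run down, and its beta subunit is needed for the catalytic alpha subunit to fold and reach the membrane. Atp2a2 encodes SERCA2, which loads calcium into the endoplasmic reticulum, and the Atp2b genes encode PMCA1 to PMCA4, calmodulin-activated pumps that drive calcium out of the cell. In striatal neurons these calcium pumps work beside sodium-calcium exchangers and calcium buffers.

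The signal is the MAS5 value of a probe set, a brightness on a linear scale after each array was scaled, so all values are relative to the rest of that array, and differences are KO minus WT on log2(signal + 16). The 6 arrays had median signals of 43.1 to 47.3 and correlated at 0.972 to 0.979 on the log2 scale. Ppargc1a was lower in KO at each of its 5 probe sets, and the one with the smallest p read 89.5, 87.9 and 68.4 in KO mice, against 397, 305 and 370.3 in WT mice (difference -1.93, SE 0.14, limma adjusted p = 3.0e-05). In whole tissue, fewer cells of a type and less RNA per cell cannot be told apart.

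No pump probe set passed the test. Of the 20 tested, 0 had a limma adjusted p under 0.05, where 0.47% of all 27022 probe sets tested were called (0.178% higher and 0.292% lower in KO), and their adjusted p ran from 0.42 to 0.93. At an unadjusted p under 0.05 the count was 1 of 20, an Atp2b2 probe set, where the share over all probe sets was 9.17%. KO and WT did not overlap for 2 of the 20, both with KO above WT, where 14.4% of all probe sets did not overlap in either direction with KO above WT in 6.52% and below WT in 7.88%. The differences ran from -0.26 to 0.31, with 11 above 0 and 9 below, and a median of 0.04, while the median over all probe sets was -0.0045. The median size of the difference was 0.10 for the pumps and 0.12 for all probe sets, which include a larger share of dim ones. Among probe sets with a mean signal of at least 100, it was 0.094 for the 18 of the pumps and 0.095 for all.

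The pump genes were measured closely enough to bound the size of a change. For the 18 probe sets with a mean signal of at least 100, the 95% confidence intervals of the KO to WT ratio lay between 0.754 and 1.30. The median standard error was 0.078 for these 18 and 0.11 for all probe sets of that brightness. At a mean signal of at least 1000, which 12 of the 18 reached, it was 0.075 for the pumps and also 0.075 for all probe sets. The smallest difference called among probe sets of that brightness was 0.35, larger than any of these 18.

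**Figure D1:**
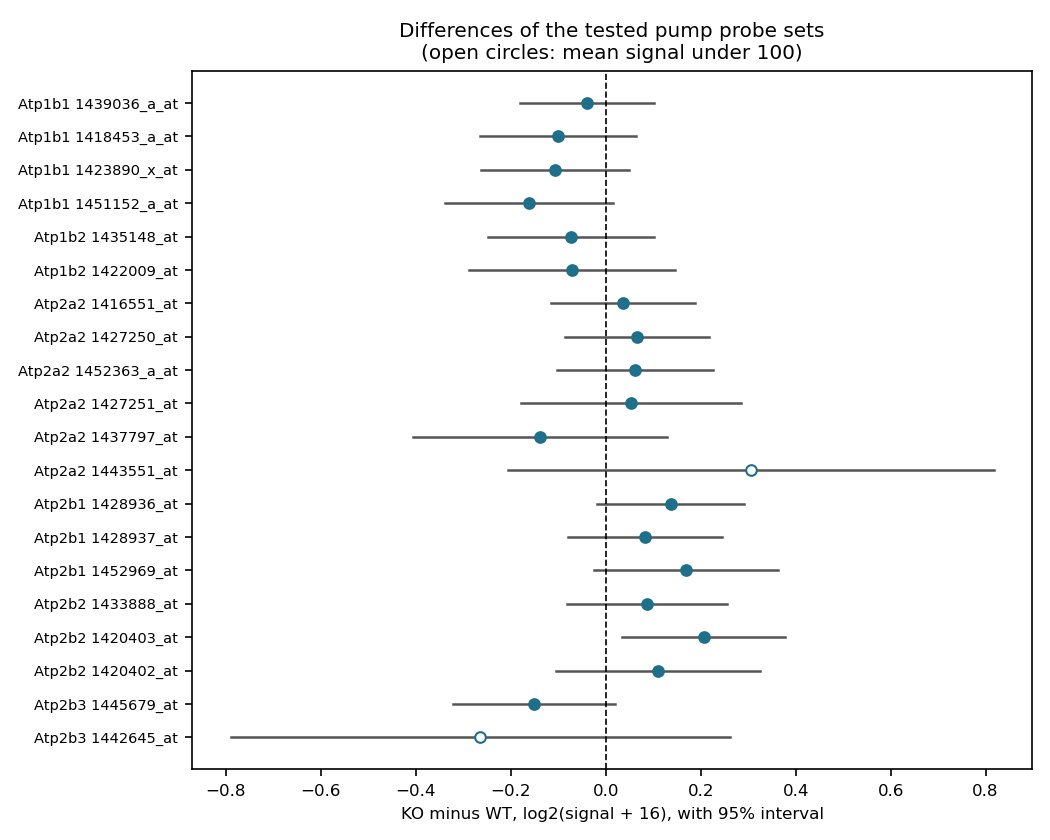
KO minus WT difference of each tested pump probe set on the log2(signal + 16) scale (horizontal axis), with points for the estimates, lines for 95% confidence intervals from limma and open circles for a mean signal under 100. Of the 20 intervals only that of Atp2b2 1420403_at, from 0.04 to 0.38, leaves out 0, before adjustment for the number of probe sets.

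Atp1b1 encodes the beta1 subunit, the most widely expressed partner of the catalytic subunit. Its 4 tested probe sets gave differences from -0.16 to -0.04, each below 0, and 0 of them passed. The brightest, 1439036_a_at, read 8763.8, 9222 and 9574.3 in KO mice, against 9792.3, 9545.6 and 8980.4 in WT mice. The groups overlapped, with KO 1 the lowest and WT 1 the highest (difference -0.04, SE 0.06, limma adjusted p = 0.91). The sign of this difference depended on the scaling, at 0.03 after quantile normalization and 0.0058 with arrays centred on their medians.

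The other Atp1b1 probe sets gave differences further below 0. Probe set 1451152_a_at read 2472.7, 2965.6 and 2550.7 in KO mice, against 3087.5, 2764 and 3077 in WT mice. KO 2 lay above WT 2, and the other KO mice lay below all WT mice (difference -0.16, SE 0.08, adjusted p = 0.59; KO to WT ratio 0.894, 95% interval 0.79 to 1.01). Probe set 1418453_a_at averaged 4676 ± 279 in KO and 5022 ± 417 in WT, and 1423890_x_at averaged 4011 ± 275 in KO and 4319 ± 213 in WT (SD, n = 3 each), with overlapping groups in both. Probe sets with the suffix _x_at can also bind related transcripts. A further probe set, 1455949_at, read 6.8 to 20.6 in KO and 7.3 to 29.1 in WT and was too dim to test. As the mean of its 4 tested probe sets, Atp1b1 differed by -0.10 (SE 0.06, adjusted p = 0.59 among 12323 genes), and each KO mouse lay below each WT mouse, at -0.14, -0.07 and -0.10 in KO against 0.07, -0.03 and -0.05 in WT relative to the WT mean. Of the 6 pump genes tested, 2, Atp1b1 and Atp2b2, did not overlap between the groups by this mean, as was the case for 15.3% of all genes.

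Atp1b2 encodes the beta2 subunit, also known as the adhesion molecule on glia, which is found mostly in astrocytes. Its brightest probe set, 1435148_at, read 1121.8, 1099.8 and 1116.5 in KO mice, against 1304.7, 1087.7 and 1132 in WT mice. The KO mice lay close together, WT 1 stood above the other 5 arrays, and the groups overlapped (difference -0.07, SE 0.08, adjusted p = 0.84). Without WT 1 the difference was 0.0039. The second probe set, 1422009_at, averaged 357 ± 19.7 in KO and 377 ± 38.6 in WT (SD, n = 3 each) and gave -0.07 (SE 0.10), with -0.0030 without WT 3, -0.03 without KO 1 and -0.15 without WT 2.

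The balance of the beta subunits was compared within each array, where a scale factor common to the array largely cancels. The log2 value of the brightest Atp1b1 probe set minus that of the brightest Atp1b2 probe set was 2.95, 3.05 and 3.08 in KO mice, against 2.89, 3.12 and 2.97 in WT mice. The groups overlapped (3.03 ± 0.070 in KO and 2.99 ± 0.11 in WT, SD, n = 3 each; difference 0.03, two-sided exact permutation p = 0.8, where 0.1 is the smallest possible). After quantile normalization the difference was 0.12 (exact permutation p = 0.4), and without KO 3 it was 0.0061. The value itself reflects how the probes bind as well as transcript amounts, so only its change between mice can be read.

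**Figure D2:**
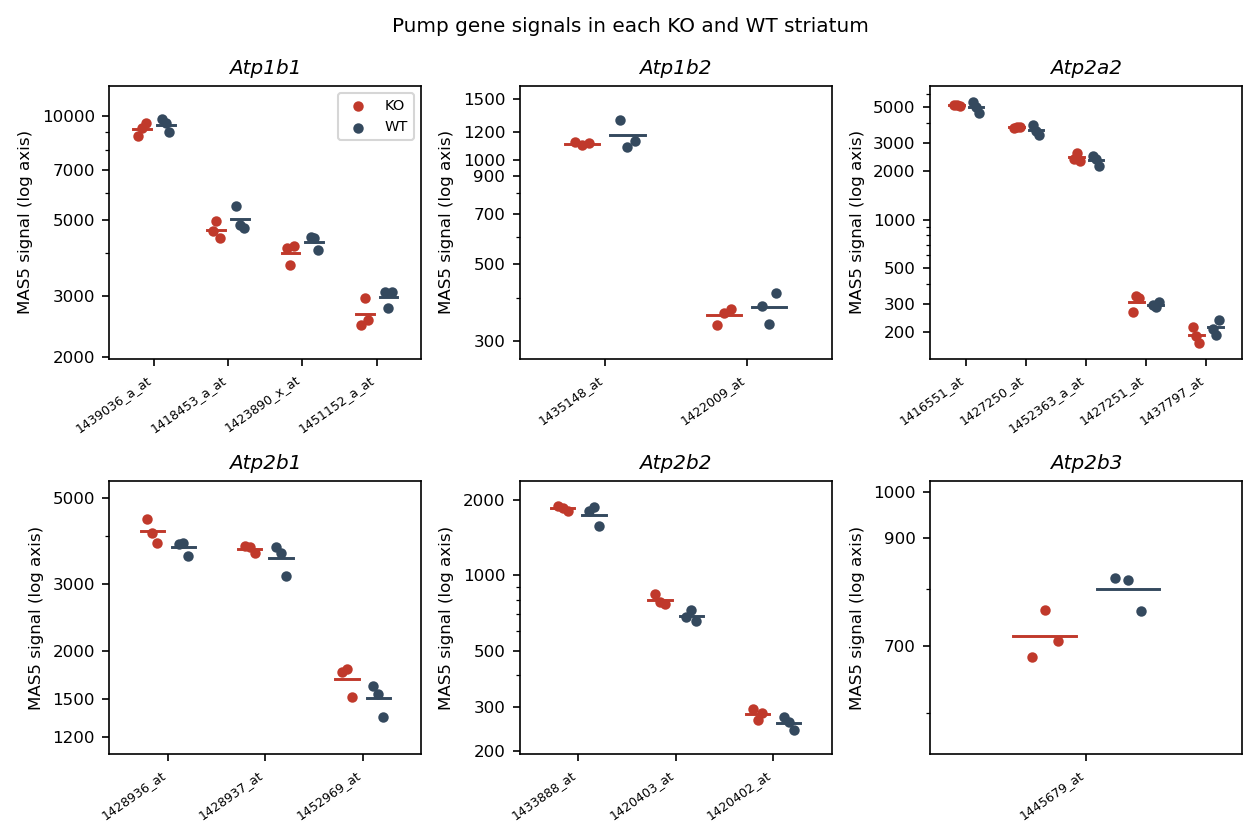
MAS5 signal (log axis) of each pump probe set with a mean signal of at least 100, with 1 point per mouse, a line at the group mean, KO to the left and WT to the right. KO and WT points interleave for every probe set except Atp2b1 1428936_at and Atp2b2 1420403_at, whose KO points lie above the WT points.

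Atp2a2, for SERCA2, refills the endoplasmic reticulum with calcium after release through inositol trisphosphate and ryanodine receptors. Of its 6 probe sets 5 gave differences above 0 and 1 below, and 0 passed. The brightest, 1416551_at, read 5170.5, 5188.6 and 5059 in KO mice, against 5409.7, 5040 and 4618.7 in WT mice. The KO mice lay within the range of the WT mice (difference 0.04, SE 0.07, adjusted p = 0.92; ratio 1.03, 95% interval 0.923 to 1.14). Without WT 3 this difference was -0.02.

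Probe set 1427250_at averaged 3746 ± 37.2 in KO and 3585 ± 273 in WT, and 1452363_a_at averaged 2437 ± 134 in KO and 2336 ± 176 in WT (SD, n = 3 each), with differences of 0.07 and 0.06. Without WT 3 these were 0.016 and 0.0020. Among the dimmer ones, 1427251_at gave 0.05 and 1437797_at gave -0.14, with overlapping groups. The value of 1437797_at was -0.06 without KO 3 as well as without WT 3, and -0.22 without KO 1. The dimmest, 1443551_at, read 35, 49.4 and 83.6 in KO mice, against 40.8, 38.7 and 40.6 in WT mice. Its difference of 0.31 (SE 0.24, adjusted p = 0.75) was the largest above 0 among the pumps and came with a wide spread in KO, and without KO 3 it was 0.04. Atp2a2 lies on chromosome 5, as does Ppargc1a, and the other 6 pump genes lie on other chromosomes.

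Atp2b1 encodes PMCA1, the form of the plasma membrane pump found in nearly all cells. Its 3 probe sets gave differences of 0.14, 0.08 and 0.17, each above 0, and 0 passed. The brightest, 1428936_at, read 4426.6, 4052.3 and 3832.8 in KO mice, against 3805.8, 3826.8 and 3549.5 in WT mice. The groups did not overlap, but the lowest KO mouse and the highest WT mouse were only a few units apart (difference 0.14, SE 0.07, adjusted p = 0.61; ratio 1.10, 95% interval 0.987 to 1.22). Without KO 3 the difference was 0.18. Probe set 1452969_at read 1766, 1802 and 1525 in KO mice, against 1624.1, 1549.5 and 1352.2 in WT mice, so that KO 3 lay below WT 1 and WT 2. Probe set 1428937_at averaged 3700 ± 91.8 in KO and 3501 ± 313 in WT (SD, n = 3 each).

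Atp2b2 encodes PMCA2, a fast form of the pump that neurons and the hair cells of the inner ear rely on. Its 3 probe sets also gave differences above 0, at 0.09, 0.21 and 0.11, and 0 passed. Probe set 1420403_at, with the smallest p of all pump probe sets, read 839.2, 785.5 and 770.3 in KO mice, against 684, 729.6 and 656.3 in WT mice. Every KO mouse was above every WT mouse (difference 0.21, SE 0.08, unadjusted p = 0.022, adjusted p = 0.42; ratio 1.15, 95% interval 1.02 to 1.30). Without KO 3 the difference was 0.23. The brightest Atp2b2 probe set, 1433888_at, read 1889, 1848 and 1809.5 in KO mice, against 1794.2, 1874.7 and 1565.5 in WT mice. Those groups overlapped, with WT 2 above 2 of the KO mice (difference 0.09, SE 0.08, adjusted p = 0.79). The third, 1420402_at, averaged 281 ± 15 in KO and 259 ± 14.8 in WT.

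WT 3 was often the lowest of the 6 arrays. It was lowest for 3 of 3 Atp2b1, 3 of 3 Atp2b2 and 3 of 6 Atp2a2 probe sets. Among the 20 pump probe sets in all the count was 9, against 6 for KO 1 and 0 for WT 1. Each tested Atp1b1 and Atp2b3 probe set was lowest in a KO array. Probe sets of 1 gene are not independent, and the share over all probe sets was not counted. The median signal of WT 3, at 47.3, was the highest of the 6 arrays. Without WT 3 the Atp2b1 differences were 0.10, 0.0084 and 0.09, and those of Atp2b2 were 0.01, 0.17 and 0.07. The summed signals of the medium spiny neuron, oligodendrocyte and microglia markers, 3 of 9 marker lists, were also lowest in WT 3, and their part in these values was not tested.

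Over the 6 arrays, the genes whose values lay nearest to those of Atp2b2 1420403_at, among 12317 other named genes, were Zfp236, Lhpp and Puf60. Likeness was the root mean square distance between log2 values, each probe set centred on its own mean, and came to 0.015 for Zfp236, 0.021 for Lhpp and 0.024 for Puf60. Puf60, a splicing factor, read 777.2, 713.8 and 716.8 in KO mice, against 655.3, 665.6 and 605.6 in WT mice. These 3 genes were picked for their likeness to a probe set that did not pass. That they did not pass either, with limma adjusted p of 0.59, 0.66 and 0.47, is therefore no separate result.

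Atp2b3 encodes PMCA3, which is expressed mainly in the nervous system, and both of its differences lay below 0. Its bright probe set, 1445679_at, read 682.7, 762.2 and 708.8 in KO mice, against 819.5, 816.9 and 759 in WT mice. KO 2 lay just above WT 3, and the other KO mice lay below all WT mice (difference -0.15, SE 0.08, adjusted p = 0.61; ratio 0.901, 95% interval 0.80 to 1.01). The second probe set, 1442645_at, was near the filter, at 38.1, 18.6 and 39.1 in KO mice, against 29.4, 46.1 and 47.4 in WT mice, and gave -0.26 (SE 0.24), with -0.045 without KO 2 and -0.42 without WT 1. Atp2b4, for PMCA4, had 1 probe set, 1445701_at, that read 26.6, 29.7 and 25.4 in KO mice, against 17.2, 26.3 and 24.3 in WT mice. It lay below the signal of 26.8 that served as the filter and has no test, so a difference in Atp2b4 was not detectable here.

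Promoter sequences from RefSeq (GRCm38.p6) were found for 4 of the 7 genes, in 7 windows that run from 250 bases before a gene's start to 50 after it. The motif AAGGTCA, the half-site that the estrogen-related receptor partners of PGC-1alpha bind, was searched on both strands and was in 0 of the 7 windows, against 4.72% of 32851 windows of all genes. TGACGTCA, the cAMP response element, was also in 0 of 7, against 1.79%. GGGCGG, the GC box, was in 5 of the 7 windows, of Atp1b1, Atp2b1 and Atp2b2, against 35.7%, and CCAAT (37.4% of all windows) and TATATA (5.67%) were each in the Atp1b1 window only. Windows of 1 gene are not independent, and a match or its absence says nothing of binding.

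The following sequences are the 250 bases before the start of Atp1b1, at chr1:164458356-164458605 on the minus strand, and before the most upstream listed starts of both plasma membrane pump genes whose probe sets all gave differences above 0, Atp2b1 at chr10:98914392-98914641 on the plus strand and Atp2b2 at chr6:114042081-114042330 on the minus strand. They are shown so that the motif matches can be read in their surroundings, 5′ to 3′ on the gene's strand. Capitals mark the GC box GGGCGG, the element CCAAT and the element TATATA on either strand.
Atp1b1: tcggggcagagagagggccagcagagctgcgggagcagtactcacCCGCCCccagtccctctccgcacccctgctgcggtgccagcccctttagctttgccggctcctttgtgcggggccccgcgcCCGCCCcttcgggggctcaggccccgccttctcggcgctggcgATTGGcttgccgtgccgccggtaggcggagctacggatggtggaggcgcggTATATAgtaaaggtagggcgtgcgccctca
Atp2b1: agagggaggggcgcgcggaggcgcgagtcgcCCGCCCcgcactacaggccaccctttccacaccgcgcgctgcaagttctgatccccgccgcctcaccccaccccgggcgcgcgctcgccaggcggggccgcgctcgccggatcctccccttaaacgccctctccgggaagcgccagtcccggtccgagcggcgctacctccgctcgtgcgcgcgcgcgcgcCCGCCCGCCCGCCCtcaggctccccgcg
Atp2b2: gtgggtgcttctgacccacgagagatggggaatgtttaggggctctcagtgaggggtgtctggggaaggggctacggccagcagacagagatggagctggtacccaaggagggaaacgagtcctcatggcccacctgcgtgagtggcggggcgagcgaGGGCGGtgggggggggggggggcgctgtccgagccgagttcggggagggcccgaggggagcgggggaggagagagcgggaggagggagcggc
The Atp1b1 sequence holds 2 GC boxes, 1 CCAAT on the opposite strand and 1 TATATA. The Atp2b1 sequence has 4 GC boxes, some of which overlap, and is 78.4% G and C, and the Atp2b2 sequence has 1 and is 69.6% G and C.

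Genes that work with the pumps were described through 4 lists, each gene by its brightest tested probe set, and 0 genes of these lists passed the test in either direction. Among partners of the sodium pump, which include the FXYD proteins that tune its ion affinity, 10 of 16 were tested, with 6 differences above 0 and 4 below (median 0.09). Fxyd6, a brain FXYD protein, read 230, 246.6 and 315.7 in KO mice, against 202.7, 199.8 and 213.3 in WT mice. The groups did not overlap (difference 0.33, SE 0.12, adjusted p = 0.41), and without KO 3 the difference was 0.20. Fxyd5 gave 0.36 (SE 0.19) with overlap, 0.23 without WT 1 and 0.55 without WT 2. The third beta subunit gene, Atp1b3, gave 0.07.

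Among relatives and regulators of the calcium pumps, 6 of 11 were tested, with 1 difference above 0 and 5 below (median -0.15). Sln encodes sarcolipin, a small inhibitor of SERCA known from muscle, and read 22.4, 19.5 and 10.9 in KO mice, against 40.1, 27.5 and 56.4 in WT mice. The groups did not overlap, but the KO signals lay below the filter signal, so the size depends on the offset (difference -0.76, SE 0.25, adjusted p = 0.34; -0.36 with an offset of 64). Bsg encodes basigin, which forms complexes with the plasma membrane pumps. It averaged 1902 ± 31.3 in KO and 2030 ± 19.2 in WT (SD, n = 3 each), with a difference of -0.09 (limma adjusted p = 0.72). KO lay below WT without overlap for Bsg, and also for Nptn and the dim Pln. Over all probe sets, 14.4% did not overlap, with KO below WT in 7.88%.

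Of the sodium-calcium exchangers, which remove calcium at the expense of the sodium gradient, 7 of 9 were tested, with 4 differences above 0 and 3 below (median 0.07). Slc24a3, a potassium-dependent exchanger, read 591.6, 599.1 and 653 in KO mice, against 492.3, 385.7 and 512.8 in WT mice. All KO mice were above all WT mice (difference 0.40, SE 0.11, adjusted p = 0.19). Slc8a1 gave 0.40 (SE 0.24), with WT 2 at 131.7 and the other arrays at 278 to 348.3, and without WT 2 it gave 0.02. In the list of calcium store release, entry and buffering, 19 of 22 were tested, with 8 above 0 and 11 below (median -0.01). Ryr1, a ryanodine receptor, read 202.6, 202.8 and 165.2 in KO mice, against 233.2, 302.6 and 252.5 in WT mice (difference -0.43, SE 0.13, adjusted p = 0.24). Orai3, a subunit of store-operated calcium channels, gave 0.55 (SE 0.19, adjusted p = 0.37), with WT signals of 37.5 to 41.2, and 0.39 without KO 3.

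**Figure D3:**
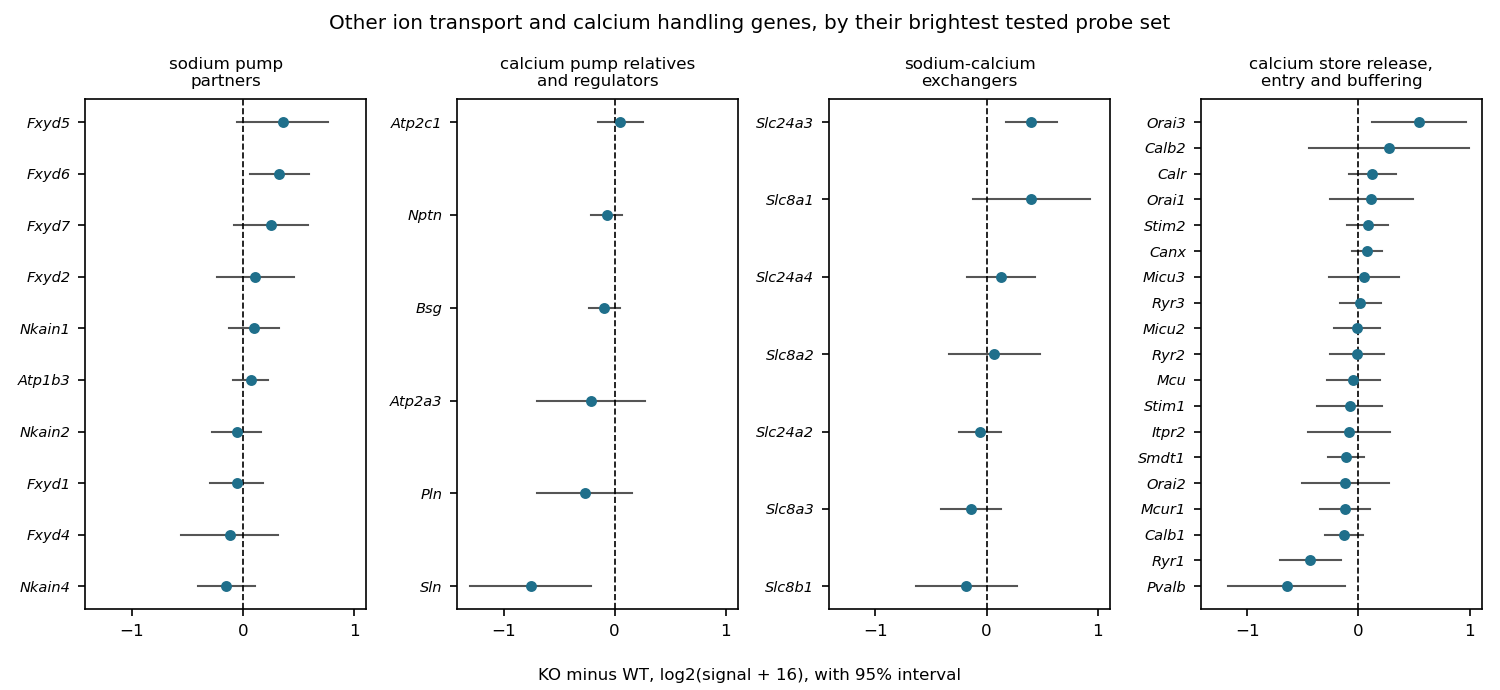
KO minus WT differences on the log2(signal + 16) scale (horizontal axis) of 42 genes in 4 lists of pump partners and calcium handling genes, with 95% confidence intervals from limma. None of the 42 passed adjustment, and Sln, at -0.76, is dim in KO and gave -0.36 with an offset of 64.

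Markers of the tissue and of neighbouring regions were set beside these values. The tissue label was checked against the 8 medium spiny neuron markers tested, whose lowest single signal was 680.5, and 0 of them were called. Their summed signal was 27536 to 30494 in KO and 25845 to 30567 in WT. All 8 thalamic markers gave differences above 0 (median 0.64, 0 called), with sums of 1811 to 2258 in KO and 845 to 2628 in WT. Of 8 choroid plexus markers 2 were tested, and 1, Ttr, was called higher in KO (difference 0.915, adjusted p = 0.035), with sums of 2812 to 3866 in KO and 1480 to 2387 in WT. The other 6, among them Kl, Folr1 and Aqp1, were below the filter, with signals of 1 to 44.2 on the 6 arrays. Of 7 markers of fast-spiking interneurons, the parvalbumin cells of the striatum, 5 gave differences below 0 and 2 above (median -0.34, 0 called). The 5 below 0 each had an unadjusted limma p under 0.05, where the share over all probe sets was 9.17%. The sums of this list were 5473 to 6214 in KO and 6188 to 8628 in WT. The 8 astrocyte markers, which bear on Atp1b2, had sums of 16616 to 18240 in KO and 17359 to 17824 in WT. The part of these markers in the pump values was not tested.

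**Figure D4:**
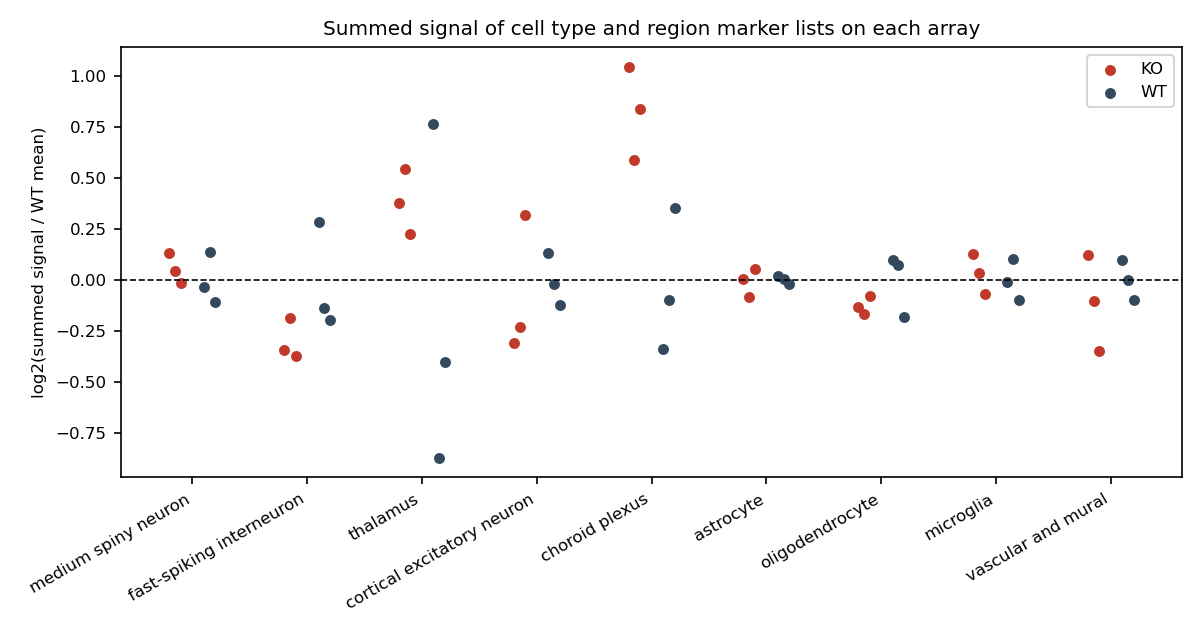
Summed signal of each marker list on each array, as log2 of its ratio to the WT mean (vertical axis), with KO points to the left and WT points to the right. KO lies above WT without overlap only for choroid plexus, where 1 gene, Ttr, gives most of the signal, and WT 1 and WT 2 lie far apart for thalamus.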

How the data were processed

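Striatal RNA of 3 KO and 3 WT mice was measured on 6 arrays. The authors deposited linear intensity values, which MAS5 produced per the submitters' processing notes. Neither its version nor its settings were stated. Groups and replicate numbers came from the sample titles. Of 45101 probe sets, 64 controls were left out, and names came from the platform annotation, updated through the GRCm38.p6 gene table. Signals were turned into log2(signal + 16), those not above the 40th percentile of mean log2 signal (26.8 on the linear scale) were removed, and KO was compared with WT in limma 3.58.1 (R 4.3.3; lmFit, eBayes with an intensity trend), with Benjamini-Hochberg adjustment over all 27022 probe sets and a threshold of 0.05. The log2 offset understates changes of dim probe sets. The procedure was tested on simulated data. The planted changes were all larger than any pump difference, so the simulation does not bear on differences of that size. The replicates are separate mice, and their number limits the precision.

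The members, the lists and the tests were chosen with earlier results of these data known. Every member probe set is named, of each list the called genes or otherwise the 2 with the smallest p, and the 3 genes nearest to the member probe set with the smallest p. Atp1b3, Nptn, Pln and the marker genes are named beyond that rule, chosen after their values were seen. Alternatives were quantile normalization, centring on the array median, offsets of 1 and 64, no filter or the 60th percentile, eBayes without trend or robust, the replicate block, leaving out each array and, added after seeing the data, averaging the probe sets of a gene.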

Additional observations from a re-analysis of the deposited data

How the results depend on the processing

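No pump probe set passed the threshold under any alternative run, and the lowest adjusted p was 0.35 over 304 values. The sign of the difference held in all alternatives for 16 of the 20 probe sets. For Atp1b1 1439036_a_at it was 0.033 after quantile normalization and 0.0058 with centring on the array median, which moved the median of all probe sets to 0.0050 and 0.04. Leaving out 1 array at a time gave -0.13 to 0.0039 for Atp1b2 1435148_at, -0.023 to 0.091 for Atp2a2 1416551_at, -0.0020 to 0.15 for Atp2a2 1427251_at and -0.016 to 0.095 for the log2 ratio of Atp1b1 to Atp1b2, which was 0.12 after quantile normalization. Centring shifts the difference of every probe set by the same amount. The cause of the other changes was not tested. Over the whole array the 127 calls became 52 without a filter, 25 without the intensity trend and 66 to 101 without 1 array (66 without KO 1, 74 without KO 2, 69 without WT 2). The replicate block gave 100 calls over the array and 0 among the pumps. Deviations of same-numbered arrays from their group means correlated at -0.0091, -0.035 and 0.017, so no pairing by number was seen. These values cannot exclude pairing, because a shared factor that moved few probe sets would barely change them. The pathway lists had 0 called genes under every alternative run. Without a filter the dim probe sets gave -0.21 for Atp1b1 1455949_at and 0.17 for Atp2b4 (adjusted p = 0.91 and 0.90). Signals near the filter limit what can be said of Atp2b4, Atp2b3 1442645_at and Atp2a2 1443551_at.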
